A study of Mus musculus with 7 samples.

Results

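Papss2 encodes an enzyme that makes PAPS, the sulfate donor of the cell. In cells sorted as TrkC neurons, it was at 1 or 2 counts per library in Runx3-P2 heterozygotes and at 54 to 112 counts in homozygotes. It is described here with 9 other genes of PAPS metabolism and heparan sulfate sulfation, 10 of the 29777 genes of the deposited count table, each found by its symbol. Papss2 was chosen by its count difference between the genotypes in these same libraries, so that difference is given as a description, and whether it passes a threshold is read as no evidence. The other 9 were taken for their place in the pathway, with their values in these libraries already known.

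Cervical dorsal root ganglia of ICR mouse embryos at E11.5 were sorted for GFP, and the positive cells gave 7 libraries, 3 from Runx3-P2+/- (heterozygote) and 4 from Runx3-P2-/- (homozygote) embryos. The Runx3-P2 allele disrupts the P2 promoter transcript of Runx3, a Runt-family transcription factor, and places GFP at the locus, so both genotypes carry GFP and there was no wild-type group. GFP marks the cells that use this promoter, taken as the TrkC neurons, and homozygotes carry it on both copies. Markers of leukocytes and of neural crest and glia were also present in these libraries, as given below, so the sorted cells were not TrkC neurons alone. Pools of 4 are named in the series' design. No label ties a library to a litter, so p-values reflect only how these libraries vary.

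Sulfate enters glycans, proteins and small molecules only after activation. PAPS synthases, which join an ATP sulfurylase and an APS kinase in a single protein, make PAPS in the cytosol and nucleus, and transporters carry it into the Golgi. Sulfotransferases there pass the sulfate to heparan and chondroitin sulfate chains and leave PAP, which phosphatases break down. In developing nerves, sulfated heparan chains bind growth factors, morphogens and axon guidance proteins.

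The start regions of Papss2 are shown because Runx proteins bind a core hexamer, TGTGGT or its reverse complement ACCACA, and Papss2 differed between genotypes of a Runx gene. RefSeq lists 2 starts for Papss2 on the plus strand of chromosome 19 (GRCm38.p6, not the build of the counts), and each window runs from 250 bases before the start to 50 after it, with the hexamer in capitals.
Papss2 first start, chr19:32595465-32595764: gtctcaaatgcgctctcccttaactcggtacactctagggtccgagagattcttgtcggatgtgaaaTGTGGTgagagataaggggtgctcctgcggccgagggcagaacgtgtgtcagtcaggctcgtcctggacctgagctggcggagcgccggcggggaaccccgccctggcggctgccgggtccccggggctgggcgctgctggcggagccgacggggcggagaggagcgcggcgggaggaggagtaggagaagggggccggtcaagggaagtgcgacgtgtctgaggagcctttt
Papss2 second start, chr19:32619755-32620054: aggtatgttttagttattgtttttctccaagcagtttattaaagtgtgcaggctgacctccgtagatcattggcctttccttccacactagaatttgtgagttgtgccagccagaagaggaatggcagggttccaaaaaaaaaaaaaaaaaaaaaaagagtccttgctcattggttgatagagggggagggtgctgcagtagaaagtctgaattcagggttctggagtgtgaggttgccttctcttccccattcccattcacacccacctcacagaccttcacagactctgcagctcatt
The first window holds 1 copy of the hexamer, beginning 183 bases before the start, and the second holds none. The 2 windows of Papss1, the paralog, hold none. Over the 8 members with a window in that table, 1 of 12 windows held the hexamer on either strand, beside 16.8% of the 32851 mouse windows of the same length. A match is a match of letters only, since no binding was measured here.

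Runx3, the targeted gene, was at 67.2, 94.1 and 94.5 CPM in the heterozygotes and at 6.56, 11.51, 6.49 and 12.1 CPM in the homozygotes. CPM is a count scaled by the TMM-adjusted library total. Total counts ranged from 11184237 to 13986835 per library. Of 14040 genes tested, 7 were called at an adjusted p below 0.05 (edgeR quasi-likelihood test), 0.0499% of those tested. Markers of the sorted cells were present in every library. The 11 sensory neuron markers summed to 19272 to 22443 CPM in heterozygotes and to 11271 to 19905 CPM in homozygotes, with none at 0 in a genotype, and Tubb3 and Stmn2 made up most of these sums. Of the 11, 4 were lower in every homozygote library than in any heterozygote library, and edgeR called 2, Runx3 and Avil. Their mean ran from 8.86 to 9.14 log2 CPM in heterozygotes and from 7.41 to 8.40 log2 CPM in homozygotes. This mean includes Runx3, the targeted gene, at a log2 fold change of -3.22, and Avil at -2.43. The other markers ran from -1.08 (Prph) to -0.19 (Stmn2), with Ntrk3, which encodes TrkC, at -0.35. The mean is thus no measure of the share of neurons. Heterozygote library 3 and homozygote library 3 stood at the ends of the leukocyte and mesenchyme marker levels. Bulk libraries cannot tell fewer cells of a type from less RNA per cell.

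Of the PAPS synthases, Papss1 carried almost all reads in both genotypes, and Papss2 was near the limit of detection in heterozygotes. Papss2 had 1, 2 and 1 counts in the heterozygotes, or 0.0780, 0.173 and 0.0869 CPM. In the homozygotes it had 92, 54, 112 and 71 counts, or 6.71, 4.20, 8.97 and 6.02 CPM. The genotypes did not overlap, and the highest 95% exact Poisson bound of a heterozygote library, 0.625 CPM, lay below the lowest bound of a homozygote library, 3.15 CPM. These bounds cover counting error only. Papss2 was chosen for this count difference, so the gap between the bounds is read as no evidence. The fitted log2 fold change was 5.73 ± 0.74 (SE), and it rests on 4 heterozygote counts in all. The authors' deposited table gives 4.04, and DESeq2 run here on the deposited counts gave 5.88. These values come from different fits, so 4.04 is not read as a smaller difference.

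Papss1 was at 199, 194 and 256 CPM in the heterozygotes and at 224, 182, 176 and 207 CPM in the homozygotes. The ranges overlapped, and the log2 fold change of -0.13 ± 0.17 (SE) did not pass the test (adjusted p = 0.827, edgeR). Its 95% interval ran from 0.707-fold to 1.18-fold. Papss2 made up 0.0392%, 0.0892% and 0.0339% of the reads of the pair in heterozygotes. In homozygotes it made up 2.91%, 2.26%, 4.84% and 2.83%, with 95% exact binomial intervals that began at 1.70% or above. These shares are of reads and are not corrected for transcript length. Their gap between genotypes follows from the choice of Papss2 and is likewise read as no evidence. Summed over both genes, the level was 216 ± 34.6 CPM in heterozygotes (SD, n = 3) and 204 ± 22.1 CPM in homozygotes (SD, n = 4), a difference smaller than the spread between libraries. None of the 3720 windows of 50 bases, the read length, in GENCODE Papss2 transcripts occurs in a transcript of another gene, so no exact match of that length joins it to Papss1.

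**Figure D1:**
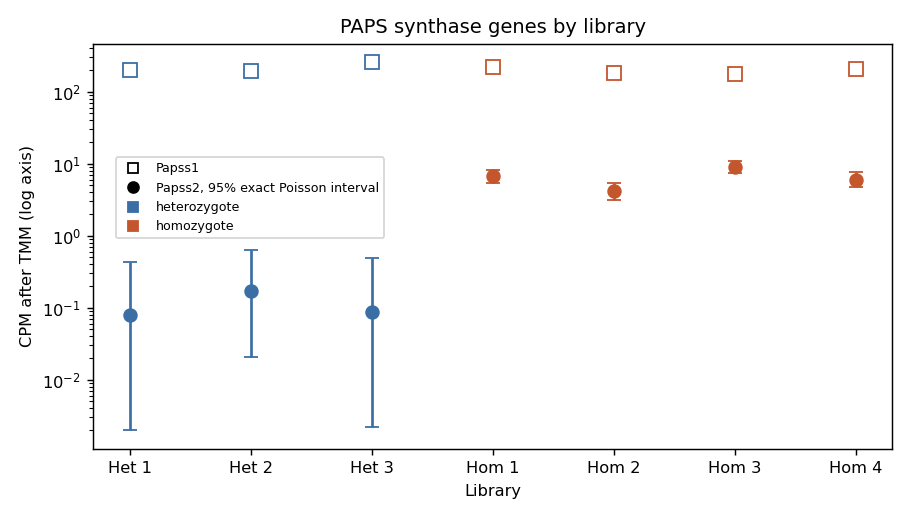
CPM after TMM (log axis) of Papss1 (open squares) and Papss2 (circles, bars are 95% exact Poisson intervals) in the 3 heterozygote and 4 homozygote libraries. Papss2 lies below 0.2 CPM in every heterozygote library and between 4.20 and 8.97 CPM in the homozygotes, while Papss1 lies between 176 and 256 CPM throughout.

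Slc35b2 and Slc35b3 encode the transporters that bring PAPS into the Golgi. Slc35b2 was at 21.6, 28.5 and 26.1 CPM in heterozygotes and at 28.7, 27.6, 58.6 and 42.5 CPM in homozygotes. Homozygote libraries 3 and 4 were the highest and the genotypes overlapped. Its log2 fold change of 0.63 ± 0.31 (SE) did not pass the test (adjusted p = 0.444, edgeR), and it was 0.38 without homozygote library 3. Slc35b3 ranged from 16.6 to 24.5 CPM in heterozygotes and from 18.1 to 27.9 CPM in homozygotes, with overlap. The fitted difference was 0.27 ± 0.28 on the log2 scale (SE; adjusted p = 0.784, edgeR).

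Bpnt1 and Impad1 (now Bpnt2) encode the phosphatases that clear PAP, in the cytosol and in the Golgi. The pair had fold changes of opposite sign, and neither passed the test. Bpnt1 was at 109, 66.9 and 110 CPM in heterozygotes and at 74.5, 78.1, 78.5 and 78.4 CPM in homozygotes. The homozygote libraries lay within 4 CPM of each other, inside the heterozygote range. The fitted difference was -0.30 ± 0.20 on the log2 scale (SE; adjusted p = 0.612, edgeR), and 3.87% of its transcript windows occur in transcripts of other genes.

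Impad1 was at 28.2, 28.7 and 23.6 CPM in heterozygotes and at 66.6, 33.7, 43.2 and 42.7 CPM in homozygotes. All homozygote libraries were higher than any heterozygote library, and homozygote library 1 was the highest. After Papss2 it had the smallest p of the 10 genes, with a log2 fold change of 0.80 ± 0.27 (SE), 1.74-fold with a 95% interval from 1.15 to 2.63. It did not pass over all genes (adjusted p = 0.243, edgeR; adjusted p = 0.088, DESeq2). The authors' deposited table gives it an adjusted p of 0.0651.

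The heparan sulfate sulfotransferases act in turn on the growing chain. Ndst1, which removes acetyl groups and adds the first, N-linked sulfate, was at 55.7, 51.0 and 60.2 CPM in heterozygotes and at 47.4, 44.2, 38.8 and 36.9 CPM in homozygotes. Every homozygote library was lower than every heterozygote library. The log2 fold change of -0.41 ± 0.19 (SE) did not pass the test (adjusted p = 0.416, edgeR). Rps14, a ribosomal protein gene, overlaps Ndst1 on the other strand in the GENCODE annotation. No source used here gives the strand setting of the counting, so reads of this pair may not be separable. Other members also overlap annotated genes, Slc35b3, Hs2st1 and Hs6st2 on the same strand and Papss1, Slc35b3 and Hs6st1 on the other. The annotation used for the counting is not given either.

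Hs2st1, which adds sulfate at the 2-O position of the uronic acid, ranged from 16.1 to 30.1 CPM in heterozygotes and from 19.1 to 37.0 CPM in homozygotes. The fitted difference was 0.19 ± 0.32 on the log2 scale (SE; adjusted p = 0.883, edgeR). Hs6st1 and Hs6st2 both sulfate the 6-O position of glucosamine. Hs6st1 was at 112, 196 and 184 CPM in heterozygotes and at 125, 157, 110 and 249 CPM in homozygotes. It spanned the widest CPM range of the 4 transferases in either genotype, and its log2 fold change of -0.04 ± 0.30 (SE) left a 95% interval from 0.615-fold to 1.55-fold. Hs6st2 was at 8.26, 8.30 and 10.4 CPM in heterozygotes and at 12.4, 11.98, 15.1 and 11.9 CPM in homozygotes. All homozygote libraries were higher, but the log2 fold change of 0.51 ± 0.32 (SE) did not pass the test (adjusted p = 0.574, edgeR).

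**Figure D2:**
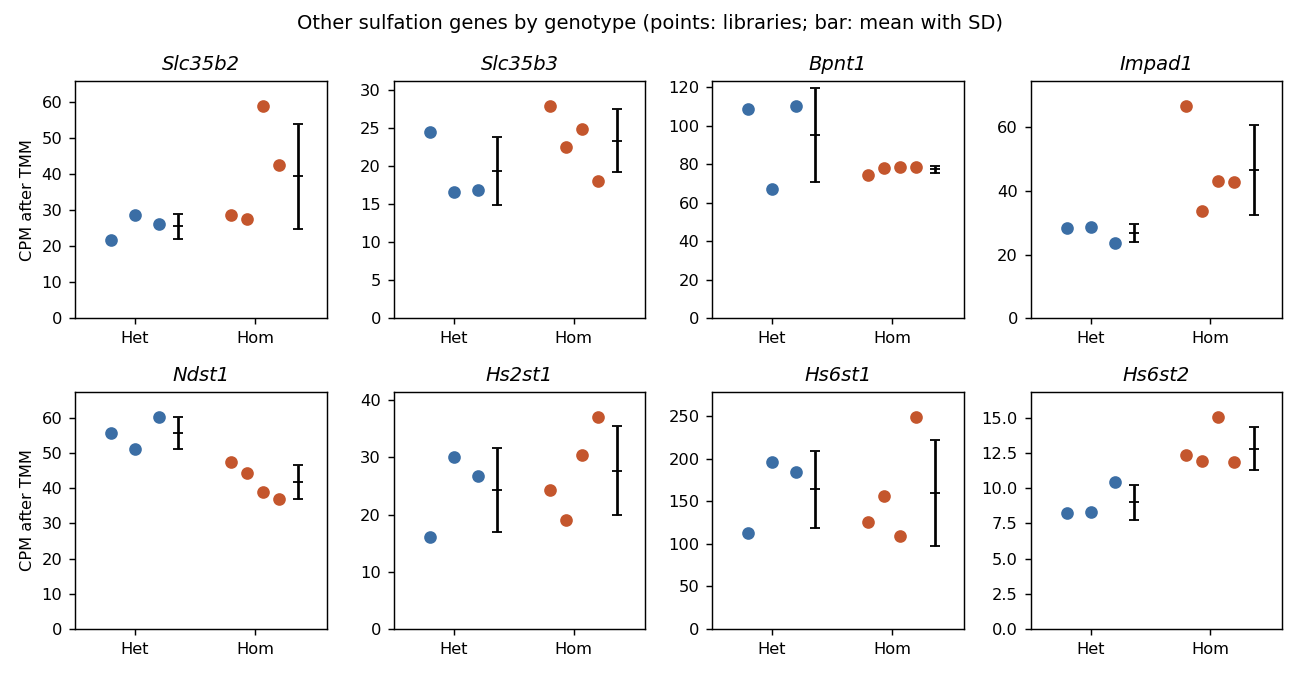
CPM after TMM of the 8 other sulfation genes in heterozygote (Het, n = 3) and homozygote (Hom, n = 4) libraries, with points for libraries and bars for the mean with its SD. Impad1 and Hs6st2 are higher and Ndst1 lower in every homozygote library, and the other 5 overlap.

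All 10 genes passed the filter on low counts, Papss2 only through its homozygote counts, since it had 1, 2 and 1 counts in the heterozygotes. Of the 9 genes besides Papss2, none was called by edgeR, DESeq2 or limma-voom, and 1, Impad1, had an unadjusted edgeR p below 0.05. Over all tested genes 12.6% had an unadjusted edgeR p below 0.05, and edgeR called 0.0499% and DESeq2 4.76%. Papss2 itself was on the edgeR and DESeq2 lists, a count fixed by the choice of the gene. Its edgeR call ended in 6 of the 7 fits that left out a single library and was kept without homozygote library 3. Besides Papss2, 2 members lay higher and 1 lower in the homozygotes without overlap, beside 6.6% of all tested genes that were higher and 5.78% that were lower in that way. The median log2 fold change over the 10 was 0.23, with 6 positive and 4 negative. Papss2, chosen for its rise, is 1 of the 6 and enters the median. Over all tested genes the median was -0.0177, and 48.3% were positive.

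**Figure D3:**
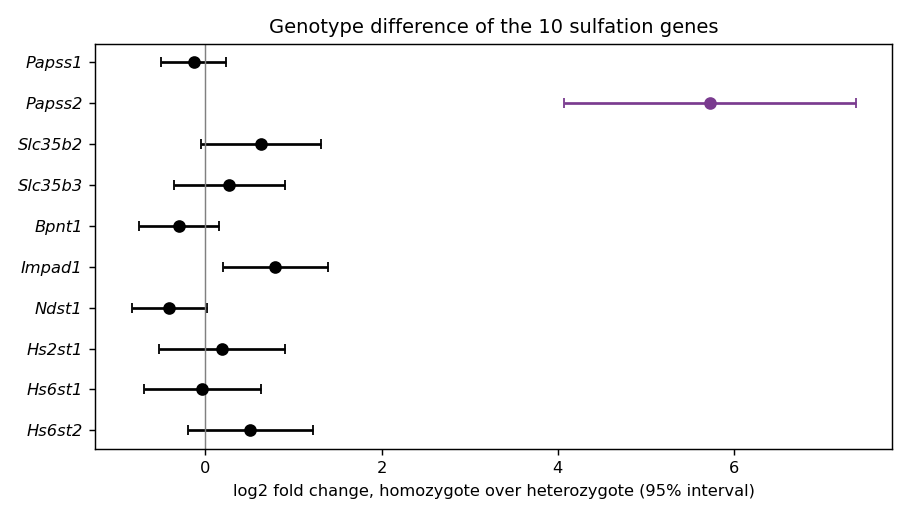
Fitted log2 fold change of homozygote over heterozygote for the 10 genes, with 95% intervals from the edgeR fit. Papss2 lies at 5.73, chosen for this difference, and the other 9 lie between -0.41 and 0.80.

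Leukocyte markers also lay higher in homozygotes, though edgeR called none of the 17 (DESeq2 called 12, and the unadjusted edgeR p was below 0.05 for 15). Of 17 leukocyte markers, 14 were higher in every homozygote library than in any heterozygote library and none was at 0 throughout a genotype; their sum ran from 292 to 353 CPM in heterozygotes and from 701 to 4336 CPM in homozygotes. Coro1a, an actin regulator, made up most of the heterozygote sum, so it was set aside after the values were seen. The other 16 markers then summed to 139, 128 and 9.30 CPM in heterozygotes and to 455, 587, 3715 and 669 CPM in homozygotes. Homozygote library 3 held 8.97 CPM of Papss2 and homozygote library 1 held 6.71 CPM, at leukocyte sums of 3715 and 455 CPM. Among the heterozygotes, library 1 with 139 CPM of leukocyte markers held 1 count of Papss2, as did library 3 with 9.30 CPM. Without both libraries numbered 3 the log2 fold change of Papss2 was 5.40, and with the leukocyte mean as a covariate, which itself differed by genotype, it was 5.11. Over all libraries, the mean log2 CPM of the 17 markers had a Pearson correlation of 0.82 with Papss2, and both separate the genotypes. Both were also highest in homozygote library 3. What part leukocytes have in the Papss2 level was not tested.

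Papss2 is known from cartilage, where PAPS feeds chondroitin sulfate. The 15 mesenchyme and cartilage markers summed to 292, 219 and 93.0 CPM in heterozygotes and to 379, 370, 584 and 147 CPM in homozygotes, and none of the 15 was free of overlap. Homozygote library 4 held 6.02 CPM of Papss2 with a lower sum than heterozygote libraries 1 and 2. Of the cartilage markers, Matn1 (matrilin 1) was at 0 in all 7 libraries, and Acan (aggrecan) had 2 counts in heterozygote library 1 and 0 elsewhere. Sox9, a factor of cartilage, was at 17.5, 22.8 and 0.782 CPM in heterozygotes and at 98.9, 62.9, 95.3 and 11.1 CPM in homozygotes, high in homozygote libraries 1 to 3. Col2a1, a cartilage collagen, was at 17.6, 22.9 and 18.6 CPM against 34.5, 33.98, 36.4 and 13.7 CPM, with the same 3 libraries high. Col9a1, also a cartilage collagen, went otherwise, at 8.58, 3.98 and 10.2 CPM against 16.9, 14.6, 6.25 and 2.63 CPM. Its homozygote libraries 3 and 4 were not high. What part such cells have in the Papss2 level was not tested. Endothelial markers ran from 5.07 to 10.5 CPM in heterozygotes and from 6.61 to 53.5 CPM in homozygotes. Erythroid markers ran from 0.696 to 107 CPM and from 8.31 to 41.4 CPM. Neural crest and glial markers ran from 1616 to 2154 CPM and from 1082 to 2127 CPM, spinal cord markers from 18.3 to 59.3 CPM and from 39.0 to 125 CPM, and muscle markers from 17.04 to 21.1 CPM and from 18.1 to 268 CPM. Each of these sums overlapped between genotypes, but single genes did not always. Gata1 (erythroid) and Lhx1 (spinal cord) were higher in every homozygote library, and Klf1 (erythroid) and Tek (endothelium), at 7 counts or fewer, were lower. DESeq2 called Gata1 (adjusted p = 0.0469) and Pecam1 of endothelium (adjusted p = 0.0112), and edgeR called neither. In the erythroid sum of heterozygote library 2, Hbb-y alone was at 82.6 CPM. The muscle sum of 268 CPM was that of homozygote library 2 alone, with homozygote libraries 1, 3 and 4 at 18.1, 35.2 and 28.0 CPM. Cldn5 of endothelium was at 0 in every library.

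**Figure D4:**
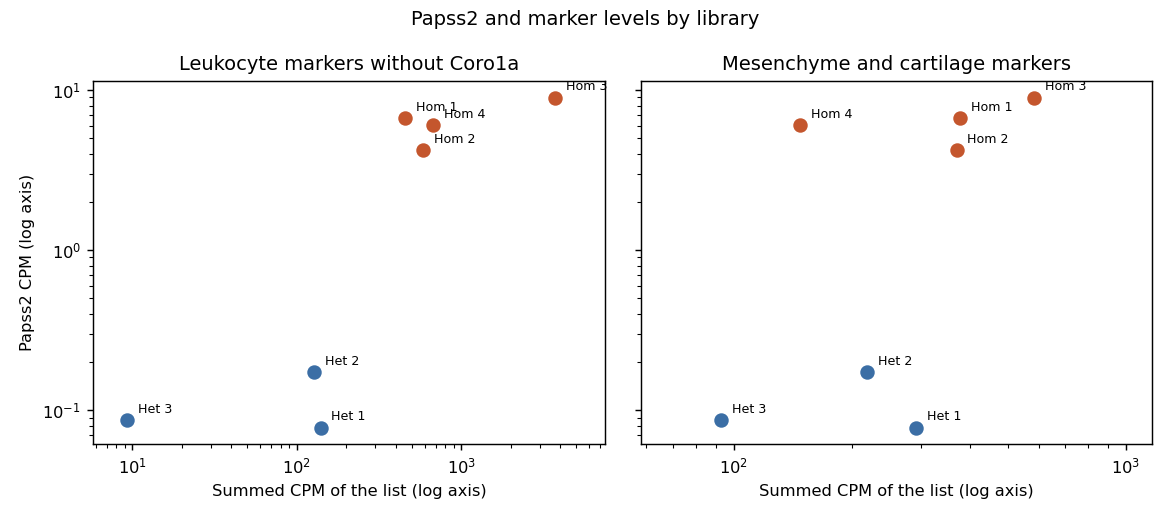
Papss2 CPM against the summed CPM of 16 leukocyte markers (left, without Coro1a) and 15 mesenchyme and cartilage markers (right) per library, all axes logarithmic, with heterozygotes (Het) in blue and homozygotes (Hom) in orange. Homozygote library 4 lies among the heterozygotes on the right-hand horizontal axis and with the homozygotes in Papss2.

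The genes most like Papss2 over the 7 libraries, by Pearson correlation of log2 CPM, were Chad, Gna14, Adcy4, Rhoh, Samd9l and Lama1, with r from 0.983 to 0.993. Since the genotypes separate in Papss2, r is raised for a gene that separates them in the same direction. Impad1 and Hs6st2, which do so, had r of 0.83 and 0.88, and 161 of 14039 genes reached 0.9. Chad, Gna14, Adcy4, Rhoh and Samd9l had 6 counts or fewer in each heterozygote library. Like Papss2, they passed the filter on low counts only through the homozygotes. Chad, chondroadherin of cartilage matrix, was at 0 in each heterozygote library, and its homozygote counts were 53, 27, 64 and 25. Adcy4, an adenylyl cyclase, had 0, 1 and 0 against 28, 38, 48 and 34 counts. Rhoh, a GTPase known from blood cells, had 0 in each heterozygote library and 107, 51, 335 and 58 counts. Lama1, the laminin alpha 1 chain, was measured at higher counts, 153, 118 and 114 against 390, 304, 449 and 313, with no overlap. Its log2 fold change of 1.42 ± 0.28 (SE) did not pass with edgeR (adjusted p = 0.0846) and passed with DESeq2 (adjusted p = 0.000189).

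Beyond the 10, 121 further sulfation genes were listed in 9 groups, of which 120 were in the table, 14 had 0 counts in every library and 88 passed the filter. None was called by edgeR or by limma-voom, and DESeq2 called 2, beside 4.76% of all tested genes. In all, 10 had an unadjusted p below 0.05 (6 higher, 4 lower), beside 12.6% of all tested genes. Without overlap, 3 were higher and 5 lower, 9.09% of the 88 beside 12.4% of all tested genes. The median log2 fold change was -0.0532. 

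Sulfate transport had 5 tested genes, with a median log2 fold change of 0.31. Slc26a2, the sulfate transporter of cartilage, averaged 2.39 ± 1.27 CPM in heterozygotes (SD, n = 3) and 4.02 ± 3.87 CPM in homozygotes (SD, n = 4). In that order, which holds for the pairs of means that follow, Slc26a11 averaged 9.73 ± 3.54 and 6.74 ± 2.37 CPM and Slc26a6, an anion exchanger, 14.7 ± 2.06 and 14.4 ± 2.02 CPM. Sulfur oxidation, the route from cysteine to sulfate, had 11 tested genes and a median of -0.0236. Sqrdl, a mitochondrial sulfide oxidase, was at 1.79, 3.11 and 0 CPM against 5.32, 7.47, 24.9 and 3.48 CPM, without overlap and with homozygote library 3 the highest (adjusted p = 0.356, edgeR). Got1 and Got2 are the cytosolic and mitochondrial aspartate aminotransferases. Got1 averaged 204 ± 28.2 and 159 ± 11.95 CPM, also without overlap (adjusted p = 0.368, edgeR), and Got2 averaged 65.8 ± 15.05 and 51.0 ± 16.3 CPM.

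Of 17 tested genes for the heparan sulfate chain, none was free of overlap between genotypes, and the median was -0.18. Ndst3, a brain-enriched relative of Ndst1, was at 152, 114 and 143 CPM against 51.0, 121, 37.4 and 120 CPM. Homozygote libraries 1 and 3 were the low ones, and the log2 fold change of -0.73 ± 0.38 (SE) did not pass (adjusted p = 0.493, edgeR). Hs3st1, a 3-O-sulfotransferase, averaged 3.29 ± 2.21 and 7.16 ± 2.13 CPM, and Extl2, a chain glycosyltransferase, 71.4 ± 19.4 and 64.5 ± 17.6 CPM. The 14 tested chondroitin and dermatan sulfate genes had a median of -0.0467. Chst15, which adds a further sulfate to chondroitin, averaged 63.1 ± 4.63 and 84.7 ± 17.8 CPM (adjusted p = 0.451, edgeR), and Chpf2, a chondroitin polymerizing factor, 11.4 ± 1.89 and 8.27 ± 0.87 CPM (adjusted p = 0.631, edgeR). Chsy1, a chondroitin synthase, was at 71.1 ± 11.2 and 72.2 ± 7.87 CPM.

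Other carbohydrate sulfotransferases had 7 tested genes and a median of 0.0416. Chst2, which sulfates N-acetylglucosamine, averaged 116 ± 31.3 and 112 ± 31.0 CPM, and its relatives Chst5 and Chst8 averaged 1.49 ± 1.15 and 0.709 ± 0.435 CPM, and 49.8 ± 13.5 and 51.3 ± 19.8 CPM. Gal3st4, a galactose sulfotransferase, averaged 4.50 ± 1.04 and 12.1 ± 9.35 CPM, with 26.0 CPM in homozygote library 3 alone. The tyrosine sulfotransferases Tpst1 and Tpst2 had log2 fold changes of -0.17 ± 0.54 and 0.43 ± 0.49 (SE; adjusted p = 0.948 and 0.811, edgeR).

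Of 12 cytosolic sulfotransferases, 7 had 0 counts in every library and 1 was tested. Sult4a1, a neuronal member of the family, was at 87.0, 81.1 and 114 CPM in heterozygotes and at 42.2, 55.6, 39.5 and 67.3 CPM in homozygotes. Every homozygote library was lower. The log2 fold change of -0.88 ± 0.23 (SE) did not pass with edgeR (adjusted p = 0.154) and passed with DESeq2 (adjusted p = 0.0247).

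Of 14 sulfatases and their activators, 12 were tested, with a median of -0.43. Arsb, the lysosomal arylsulfatase B, was at 3.04, 2.68 and 1.13 CPM in heterozygotes and at 1.46, 5.52, 58.6 and 9.66 CPM in homozygotes. Most of its homozygote reads came from library 3, the genotypes overlapped, and it was called by DESeq2 (adjusted p = 0.0193) and not by edgeR (adjusted p = 0.276). Sulf2, which removes 6-O-sulfate at the cell surface, averaged 130 ± 22.4 and 97.0 ± 19.8 CPM (adjusted p = 0.469, edgeR). Arsk, an arylsulfatase, averaged 17.6 ± 0.82 and 10.7 ± 3.48 CPM, without overlap (adjusted p = 0.42, edgeR).

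The 19 tested proteoglycan core proteins had a median of 0.27. Agrn, the heparan sulfate proteoglycan agrin, was at 478, 510 and 440 CPM in heterozygotes and at 258, 390, 271 and 376 CPM in homozygotes, all lower. Its log2 fold change of -0.56 ± 0.18 (SE) did not pass the test (adjusted p = 0.228, edgeR). Ncan, the chondroitin sulfate proteoglycan neurocan, averaged 341 ± 51.4 and 412 ± 87.4 CPM. Bcan, or brevican, was at 0 in each heterozygote library, and its homozygote counts were 0, 26, 22 and 20 (adjusted p = 0.219, edgeR).

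**Figure D5:**
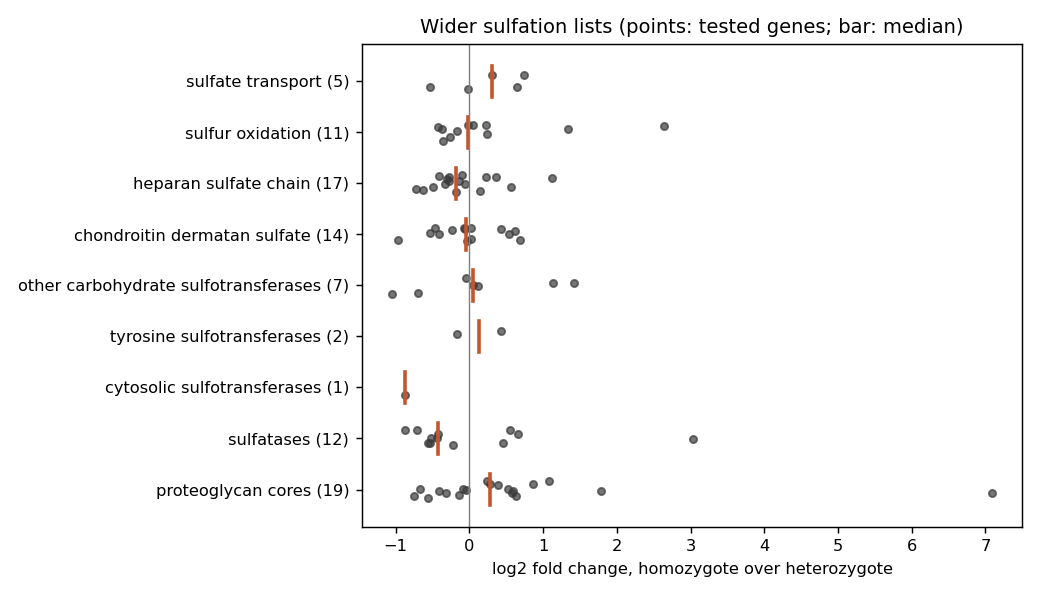
Fitted log2 fold change (homozygote over heterozygote) of the 88 tested genes in the 9 wider lists, with points for genes, orange bars for medians and the number tested in brackets. Medians lie between -0.88, for the single tested cytosolic sulfotransferase, and 0.31. The point at 7.09 is Bcan, whose fitted value depends on the prior count since its heterozygote libraries were at 0.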

How the data were processed

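Per the file headers, the authors deposited raw read counts per gene and library, normalized reads (a signal, the count divided by a single factor per library), a log2 fold change with its standard error, a Wald score and p-values. Only the counts entered a test. Per the submitters' processing notes, the tools were TopHat 1.4.0, HTSeq and DESeq2 1.2.8, and the build was mm9; their roles are not given. RNA was amplified before sequencing, per the labels' protocols.

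Genes were kept by filterByExpr (minimum count 10, minimum total 15), scaled by TMM and compared with edgeR 4.0.16 (glmQLFit, glmQLFTest, two-sided, R 4.3.3) over all 14040 genes, with Benjamini-Hochberg adjustment and a threshold of 0.05. Standard errors are the log2 fold change over the square root of F. DESeq2 1.42.0 and limma-voom (limma 3.58.1) were alternatives, and the steps were tested on simulated data. Log2 CPM used a prior count of 2.

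The members, lists and alternatives were chosen with earlier results of these data known. Named from each wider list were called genes, the 2 smallest p and the 2 most abundant, of which 1 gene is not reported here; the likeness list took the 6 highest r. No library pair of a genotype was alike within sampling noise (lowest chi-square 30.7 per degree of freedom). Of the listed genes, 1 sulfation gene and 4 markers were not analysed here.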

Additional observations from a re-analysis of the deposited data

Results flagged for a closer look

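In 2 genes, a homozygote library lay far from the other 3 relative to their range. Bpnt1 was at 74.5 CPM in homozygote library 1, below the other libraries at 78.1 to 78.5 CPM, a small gap in a narrow range. Hs6st2 was at 15.1 CPM in homozygote library 3, above the others at 11.9 to 12.4 CPM. By chance about 1 in 20 groups is picked out this way, and 10 genes were examined.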

How the results depend on the processing

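The log2 fold change of Papss2 stayed between 5.11 and 6.14 under all 18 alternatives, while the number of members called, 1 in the reported fit, was 0 with limma-voom, without both libraries numbered 3, in the date window (without homozygote libraries 1 and 3; the labels of heterozygote library 1 disagree on its month, and it was kept in) and with the leukocyte mean as a covariate. Without single libraries it ran from 0 to 1, and it was 1 only without homozygote library 3. The number of genes called over all, 7, became 668 with DESeq2, 61 with the adjusted quasi-dispersion, 80 without a count filter, 12 without both libraries numbered 3 and 0 with the leukocyte covariate. Without single libraries it ran from 1 (heterozygote library 2 or 3 left out) to 27 (homozygote library 3 left out). The number called in the wider lists, 0, became 2 with DESeq2. The cause of these moves was not tested. Of members not called, Slc35b2 ran from 0.0859 with the covariate to 0.77, and Slc35b3 from 0.0695 to 0.49. Members with fold changes near 0 changed sign in 11 cases, none of them called. Papss1 was at 0.0597 without both libraries numbered 3, 0.24 with the covariate and 0.0189 without heterozygote library 3. Hs6st1 was at 0.20, 0.31 and 0.37 without both libraries numbered 3, in the date window and with the covariate. It was at 0.11, 0.0693, 0.0834 and 0.11 without heterozygote library 2 or 3 or homozygote library 1 or 3. Hs2st1 was at -0.0224 without heterozygote library 1. Over single libraries left out, Papss1 ran from -0.21 to 0.0189, Hs2st1 from -0.0224 to 0.38 and Hs6st1 from -0.33 to 0.11. No paired analysis was possible because the labels give no replicate numbers and the dates in the titles differ for every library. A heterozygote level of Papss2 below about 0.6 CPM is not resolved at this depth.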
